A study of Saccharomyces cerevisiae with 6 samples.

Results

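The 9 genes described encode kinases, a regulatory kinase subunit and transcription factors that set the general stress response of the budding yeast Saccharomyces cerevisiae. They are TPK2, TPK3, BCY1, SCH9, RIM15, YAK1, MSN2, MSN4 and GIS1. They were chosen by name from what is known of the protein kinase A pathway, with earlier results of these data known. All 9 were found among the 5449 S. cerevisiae genes measured. Each was read by 1 probe set of an Affymetrix array, and each lay above the background level on all 6 arrays. That level is the 95th percentile of the probe sets annotated to another yeast species. Expression was measured in 3 samples of a strain carrying a GCN4 deletion and in 3 samples of the wild-type reference strain FY4. Both strains were grown in batch in minimal medium with glucose as carbon source, at 30 °C and 300 rpm, and were harvested in exponential growth at the same cell density. GCN4 encodes a transcription factor that switches on genes for making amino acids, and the study asked how expression in the deletion strain differs from FY4. The strain from which the deletion was made is not given in the labels, nor is the number of clones or whether the replicates were separate cultures. Each change below is therefore a difference between these strains. The spread behind each p-value is that among these 6 samples, and it may be technical.

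Protein kinase A (PKA) is switched on by cyclic AMP when glucose is plentiful. Its regulatory subunit Bcy1 then lets go of the catalytic subunits, the Tpk proteins, and growth is favoured over stress protection. Active PKA and the kinase Sch9, which acts below the nutrient sensing complex TORC1, hold back the kinase Rim15 and keep the activators Msn2 and Msn4 out of the nucleus. When nutrients fall, Msn2 and Msn4 bind stress response elements, Gis1 acts through post-diauxic shift elements, and the kinase Yak1 works against PKA. Much of this control acts on protein activity and location, which arrays do not measure. The values below are levels of messenger RNA averaged over a culture, in which a change in every cell and a change in a fraction of the cells cannot be told apart.

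The deletion was seen on the arrays. GCN4 had an intensity of 19, 22 and 18 in the GCN4 deletion, below the background level, against 23339, 18826 and 20141 in the wild-type. The deposited intensities were analysed as log2 values with limma, with p-values adjusted by the Benjamini-Hochberg method over all 5449 genes and a threshold of 0.05. The median log2 change over all genes was 0.09, and centring each array on its median shifted it by -0.10, so the changes of the 9 genes are also given after centring.

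Of the 9 regulators, YAK1, MSN4 and TPK3 rose in the GCN4 deletion, SCH9 fell, and the other 5 did not pass the test. Among all genes 32.2% passed, 24.6% higher and 7.67% lower, a share that would give 2.9 of 9. The 4 that passed were also the 4 whose groups did not overlap, against 47.5% of all genes (34.9% with the deletion above and 12.6% with it below), a share that would give 4.3 of 9. After centring, 27.2% of all genes passed, 14.3% higher and 12.9% lower, and YAK1, MSN4 and SCH9 did so among the regulators. A paired fit, in which replicate numbers form a block, passed 47.6% of all genes, 35.3% higher and 12.2% lower, and the same 4 regulators. The number of regulators that changed was thus near the background of this comparison, and the values below describe which of them moved and by how much. The changes were small, between -0.47 and 0.42 on the log2 scale, with a median of 0.08. In the plot of levels by array, the panels of the 4 that passed show the deletion points on one side of the wild-type points.

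**Figure D1:**
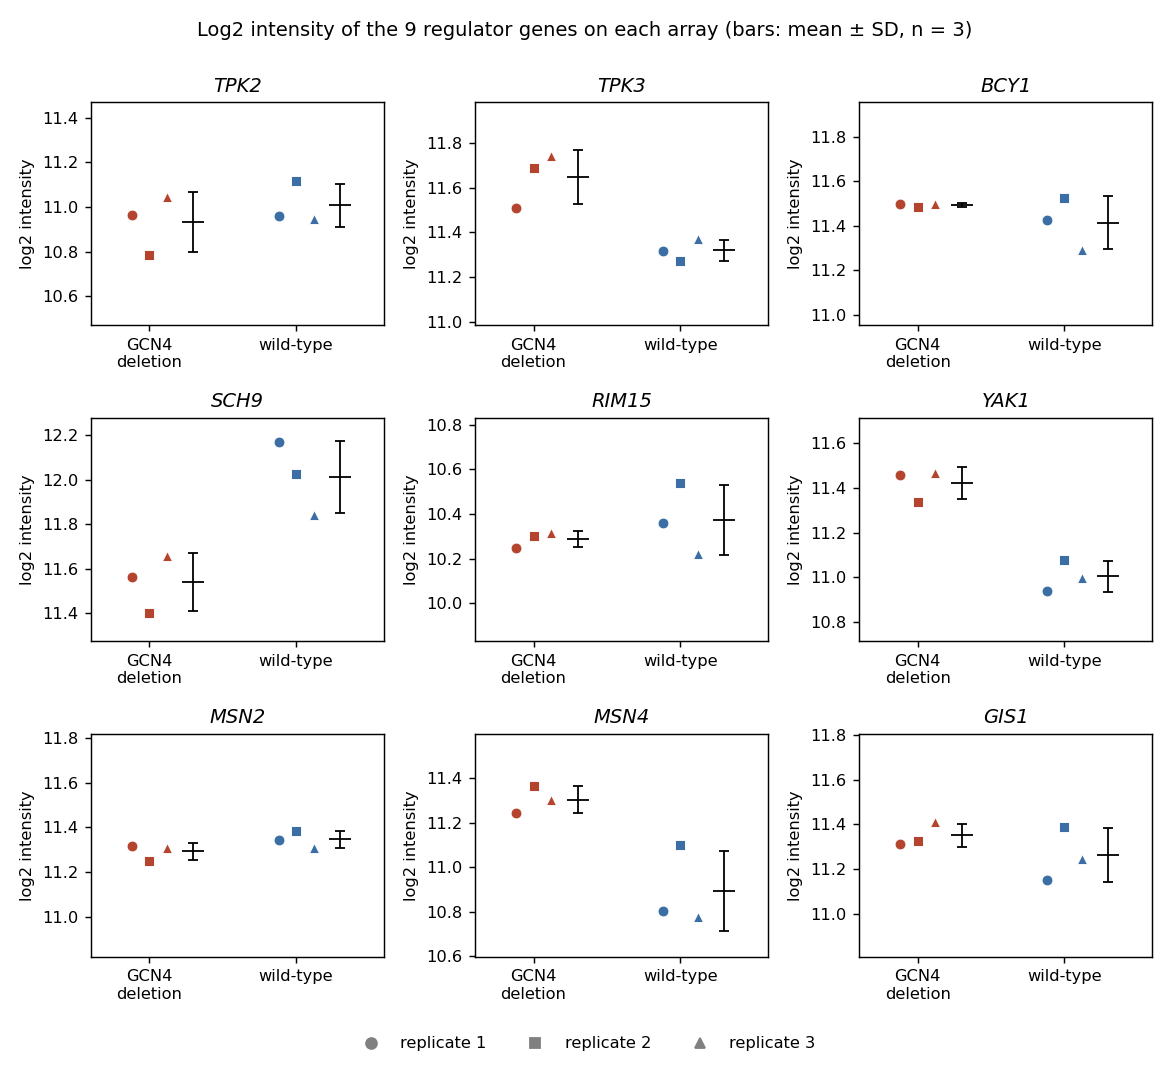
Log2 intensity (vertical axis, 1 log2 unit high in every panel) of the 9 regulator genes on the 3 GCN4 deletion arrays and the 3 wild-type arrays, with marker shape for the replicate number and bars for the mean ± SD (n = 3). YAK1, MSN4 and TPK3 lay higher on every deletion array, SCH9 lay lower, and the groups overlapped for the other 5 genes.

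Among the PKA subunits, the catalytic subunit gene TPK3 (YKL166C) rose and its paralog TPK2 (YPL203W) did not pass. TPK3 had log2 levels of 11.51, 11.69 and 11.74 in the GCN4 deletion, against 11.31, 11.27 and 11.37 in the wild-type. Every deletion array lay above every wild-type array, the closest being deletion replicate 1 and wild-type replicate 3. The change was 0.33 with a standard error of 0.07, or 1.26-fold (adjusted p = 0.0163, limma, n = 3 each), and 22.1% of all genes changed at least as much in either direction. After centring the change was 0.23 and no longer passed (adjusted p = 0.0925), nor did it pass after quantile normalization (0.23, adjusted p = 0.0778). It also missed the threshold without deletion replicate 2 (adjusted p = 0.0606), wild-type replicate 1 (adjusted p = 0.0569) or wild-type replicate 2 (adjusted p = 0.0524).

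TPK2, which encodes a catalytic subunit that also promotes pseudohyphal growth, had log2 levels of 10.96, 10.79 and 11.05 in the GCN4 deletion, against 10.96, 11.12 and 10.94 in the wild-type. The groups overlapped, with wild-type replicate 2 highest and deletion replicate 2 lowest. The change of -0.08 had a 95% interval of -0.28 to 0.13 (adjusted p = 0.554, limma). BCY1 (YIL033C), the gene of the regulatory subunit, had 11.50, 11.48 and 11.50 in the deletion, against 11.43, 11.52 and 11.29 in the wild-type. Its deletion arrays were nearly equal and lay within the wild-type range. The change of 0.08 had a 95% interval of -0.08 to 0.24 (adjusted p = 0.429) and became -0.024 after centring.

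SCH9 (YHR205W), the gene of the TORC1-dependent growth kinase, was the regulator with the largest change and the one that fell. Its log2 levels were 11.56, 11.40 and 11.66 in the GCN4 deletion, against 12.17, 12.02 and 11.84 in the wild-type. All deletion arrays lay below all wild-type arrays, and the wild-type arrays themselves spanned 0.33 with an SD of 0.16. The change was -0.47 with a standard error of 0.10, so that the level was 1.39-fold lower in the deletion, with an adjusted p of 0.0163 (limma). Of all genes, 12.7% changed by at least as much. After centring the change was -0.58 (adjusted p = 0.00785). Without deletion replicate 2, the lowest array, it was -0.40 and missed the threshold (adjusted p = 0.0524).

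The kinase genes RIM15 and YAK1, both of which act against growth, differed in what they showed. RIM15 (YFL033C), whose kinase is needed for proper entry into stationary phase, had log2 levels of 10.25, 10.30 and 10.31 in the GCN4 deletion, against 10.36, 10.54 and 10.22 in the wild-type. The deletion arrays lay within the wild-type range, in which replicate 2 was high and replicate 3 low. The change of -0.08 had a 95% interval of -0.29 to 0.12 (adjusted p = 0.499, limma). YAK1 (YJL141C) had 11.46, 11.34 and 11.47 in the deletion, against 10.94, 11.08 and 11.00 in the wild-type. Its lowest deletion array lay 0.26 above its highest wild-type array, and the SD within either group was 0.07. The change was 0.42 with a standard error of 0.06, or 1.34-fold (adjusted p = 0.00353), and 15.3% of all genes changed at least as much. YAK1 had the lowest adjusted p of the 9 regulators and passed in all 18 alternatives run, in which its change lay between 0.31 and 0.46 and its adjusted p reached at most 0.0183.

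Of the zinc finger activators that bind stress response elements, MSN4 (YKL062W) rose and MSN2 (YMR037C) did not pass. MSN4 had log2 levels of 11.24, 11.37 and 11.30 in the GCN4 deletion, against 10.80, 11.10 and 10.77 in the wild-type. The groups did not overlap, and wild-type replicate 2 lay nearest to the deletion arrays. The change was 0.41 with a standard error of 0.10, or 1.33-fold (adjusted p = 0.0204, limma), and 15.7% of all genes changed at least as much. After centring it was 0.31 (adjusted p = 0.04). The call ended without deletion replicate 2 (adjusted p = 0.0712), deletion replicate 3 (adjusted p = 0.0575), wild-type replicate 1 (adjusted p = 0.072) or wild-type replicate 3 (adjusted p = 0.0538), with changes of 0.35 to 0.41.

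MSN2 had log2 levels of 11.32, 11.25 and 11.31 in the GCN4 deletion, against 11.35, 11.39 and 11.31 in the wild-type. The groups overlapped within a span of 0.14, and its SD was 0.04 in either group. The change of -0.05 had the narrowest 95% interval of the 9 genes, -0.17 to 0.06 (adjusted p = 0.434). GIS1 (YDR096W), the gene of a zinc finger factor that acts below Rim15, had 11.31, 11.33 and 11.41 in the deletion, against 11.15, 11.39 and 11.24 in the wild-type. Wild-type replicate 2 lay among the deletion arrays and the other wild-type arrays below them. The change of 0.09 had a 95% interval of -0.09 to 0.27 (adjusted p = 0.409) and became -0.014 after centring.

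**Figure D2:**
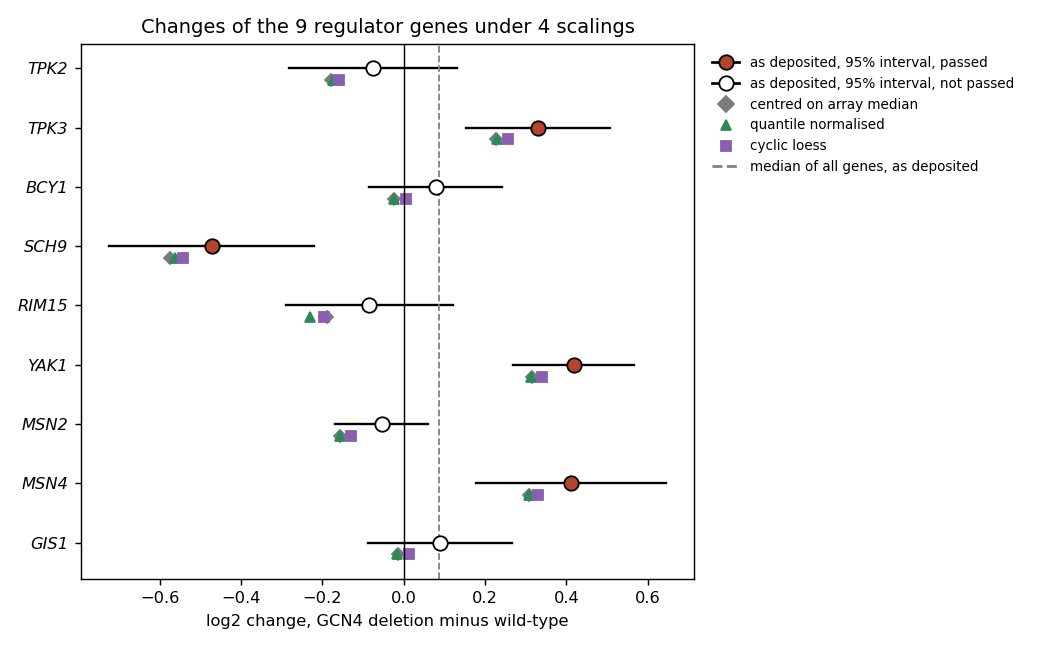
Log2 change of each regulator gene, GCN4 deletion minus wild-type (horizontal axis), as deposited with its 95% interval (circles, filled where the test was passed) and after 3 other scalings (small symbols); the dashed line is the median of all genes, 0.09. The other scalings moved every gene to the left, which took BCY1 and GIS1 to about 0 and left YAK1, MSN4 and TPK3 above 0 and SCH9 below it.

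That 1 paralog of a pair passed and the other did not is no test of a difference between them, so the pairs were compared within each array, where a scaling of the whole array cancels out. The log2 level of MSN4 minus that of MSN2 was -0.07, 0.12 and -0.01 in the GCN4 deletion, against -0.54, -0.28 and -0.53 in the wild-type. The mean was 0.01 ± 0.10 in the deletion and -0.45 ± 0.15 in the wild-type (SD, n = 3), a shift of 0.47. For TPK3 minus TPK2 the values were 0.55, 0.91 and 0.70 in the deletion, against 0.36, 0.15 and 0.42 in the wild-type, a shift of 0.41. In both pairs the 3 deletion arrays lay above the 3 wild-type arrays. An exact two-sided permutation test, which left out the pairing of replicate numbers, gave p = 0.1 for each of the 2 pairs. It stayed 0.1 after adjustment over them, which is the smallest value that 3 against 3 unpaired arrays allow. The pairs were thus separated on every array, but this design cannot take the test below 0.05.

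**Figure D3:**
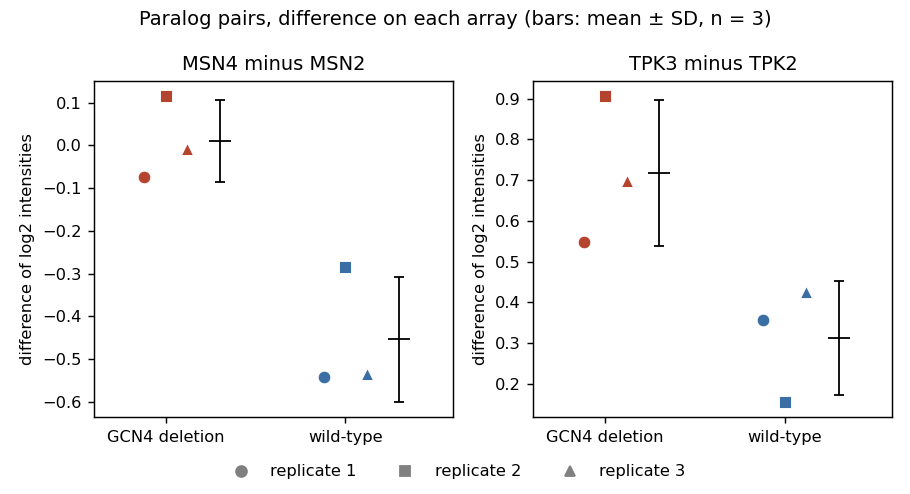
Difference of log2 intensities between the paralogs MSN4 and MSN2 (left) and TPK3 and TPK2 (right) on each of the 3 GCN4 deletion and 3 wild-type arrays, with bars for the mean ± SD. All 3 deletion arrays lie above all wild-type arrays in both panels, with shifts of 0.47 and 0.41; the vertical axes do not start at 0.

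The genes above and around the regulators were read from lists of pathway members. In the Ras and cyclic AMP branch that feeds PKA, 2 of 14 measured genes rose, 0 fell and 12 did not pass, a share of 14.3% against 32.2% of all genes. RGS2, whose product turns off the G protein of the glucose receptor branch, had log2 levels of 10.95, 10.99 and 11.01 in the GCN4 deletion, against 9.77, 9.42 and 9.62 in the wild-type. It rose 2.6-fold (adjusted p = 0.000144, limma), and its lowest deletion array lay 1.18 above its highest wild-type array. CYR1, the adenylate cyclase gene, averaged 11.91 ± 0.07 in the deletion and 11.65 ± 0.08 in the wild-type (SD, n = 3 each). It rose 1.2-fold (adjusted p = 0.0223), a call lost after centring (0.16, adjusted p = 0.159). It was lost too on omitting deletion replicate 1, deletion replicate 3 or wild-type replicate 1, with adjusted p of 0.0593, 0.0572 and 0.0736 by limma. The GTPase activating genes IRA1 and IRA2 and the GTPase gene RAS1 had changes of 0.14, 0.16 and 0.14 that did not pass. In the paired fit these 3 passed (adjusted p of 0.04, 0.0322 and 0.0435), and 5 of the 14 rose, or 35.7%, against 35.3% of all genes in that fit. After centring their changes were 0.034 for IRA1, 0.061 for IRA2 and 0.034 for RAS1 (adjusted p of 0.735, 0.582 and 0.81), and they did not pass after centring with pairing. The remaining genes of the branch, among them RAS2, CDC25, GPR1, GPA2 and the phosphodiesterase genes PDE1 and PDE2, had changes of -0.08 to 0.10.

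In the TORC1, Pho85 and phosphatase branch, which acts on Sch9 and Rim15, 2 of 18 genes rose, 0 fell and 16 did not pass, a share of 11.1% against 32.2% of all genes. PPH21, a catalytic subunit gene of protein phosphatase 2A, rose 1.22-fold (adjusted p = 0.00839, limma), and PKH1, a kinase that phosphorylates Sch9, rose 1.2-fold (adjusted p = 0.0224). After centring neither passed (adjusted p = 0.077 and adjusted p = 0.127). PKH1 also missed the threshold when deletion replicate 1 or 3 was omitted (adjusted p of 0.0646 and 0.0623), or wild-type replicate 1 or 3 (adjusted p of 0.0644 and 0.0551). The TORC1 kinase gene TOR1 changed by -0.10 and did not pass (adjusted p = 0.329), but passed as lower after quantile normalization (adjusted p = 0.0495). TAP42 at 0.28 and CDC55, the phosphatase 2A subunit restrained below Rim15, at -0.20 passed in the paired fit (adjusted p of 0.00731 and 0.0387). After centring without pairing CDC55 passed (adjusted p = 0.0319) and TAP42 did not (0.18, adjusted p = 0.326). Both passed after centring with pairing, TAP42 as higher and CDC55 as lower.

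Among 15 partners of Rim15, Yak1 and Msn2/4, 4 rose, 1 fell and 10 did not pass, a share of 33.3% that is near the 32.2% of all genes. IGO1, the gene of a Rim15 substrate, had log2 levels of 12.51, 12.55 and 12.44 in the GCN4 deletion, against 11.87, 12.01 and 11.79 in the wild-type, and rose 1.52-fold (adjusted p = 0.00144, limma). Its paralog IGO2 had 10.48, 10.52 and 10.07 in the deletion, against 10.69, 11.00 and 10.26 in the wild-type. Wild-type replicate 3 lay below deletion replicates 1 and 2, so the groups overlapped. The change of -0.29 did not pass (adjusted p = 0.343). It passed as lower only in the paired fit (adjusted p = 0.0228) and after centring with pairing. CRF1, a corepressor gene whose product Yak1 phosphorylates, was below the background level on all 3 wild-type arrays and above it on all 3 deletion arrays. The deletion exceeded the wild-type by at least 1.55-fold (adjusted p = 0.000681), a call lost after quantile normalization (adjusted p = 0.0577).

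WHI2 and PSR1, whose products act together on Msn2, moved in opposite directions. PSR1, a phosphatase gene, had log2 levels of 11.36, 11.16 and 11.17 in the GCN4 deletion, against 11.68, 11.73 and 11.62 in the wild-type, and fell 1.37-fold (adjusted p = 0.00432, limma). WHI2 rose 1.17-fold (adjusted p = 0.0135) and MSN5, the exportin gene for Msn2, 1.16-fold (adjusted p = 0.0199). Neither passed after centring, where WHI2 had a change of 0.13 (adjusted p = 0.184) and MSN5 one of 0.11 (adjusted p = 0.242). WHI2 was also lost without wild-type replicate 1 (adjusted p = 0.0525), and MSN5 on omitting deletion replicate 1 or wild-type replicate 1 or 3 (adjusted p of 0.0519, 0.0709 and 0.0546). SNF1, the glucose-responsive kinase gene, had a change of -0.14 that did not pass (adjusted p = 0.0611) but was lower after centring (adjusted p = 0.0217) and in the paired fit (adjusted p = 0.0353).

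Of 12 other transcription factors of the stress and PKA branches, 6 rose, 1 fell and 5 did not pass, a share of 58.3% against 32.2% of all genes. After centring 3 rose and 1 fell, a share of 33.3% against 27.2% of all genes. USV1, a zinc finger factor gene, had log2 levels of 9.75, 9.73 and 9.74 in the GCN4 deletion, against 8.55, 8.74 and 8.61 in the wild-type, and rose 2.15-fold (adjusted p = 6.69e-05, limma). COM2, another zinc finger factor gene, rose 1.78-fold (adjusted p = 0.00133). HSF1, the heat shock factor gene, had 10.76, 10.68 and 10.75 in the deletion, against 10.37, 10.33 and 10.33 in the wild-type, and rose 1.31-fold (adjusted p = 0.00176). The arrays of these 3 genes were fully separated, and they passed in every one of the 18 alternatives.

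SFL1, a repressor gene under PKA control, fell, with a level 1.33-fold lower in the GCN4 deletion (adjusted p = 0.00933, limma) and a pass in all 18 alternatives. ADR1, an activator of glucose-repressed genes, rose 1.21-fold (adjusted p = 0.0307) and SOK2, a PKA-dependent factor gene, 1.18-fold (adjusted p = 0.0455). HOT1, an osmostress factor gene named after its value was seen, rose 1.17-fold (adjusted p = 0.0153). None of these 3 passed after centring (adjusted p of 0.153 for ADR1, 0.278 for SOK2 and 0.198 for HOT1). ADR1 was lost when any deletion array or wild-type replicate 1 was omitted (adjusted p of 0.0541 to 0.0907), and SOK2 when any wild-type array or deletion replicate 1 or 3 was omitted (adjusted p of 0.0608 to 0.128). YAP1, RPH1 and FLO8 had changes of 0.23, 0.25 and -0.15 that did not pass, but did in the paired fit (adjusted p of 0.0187, 0.048 and 0.0355). After centring the changes were 0.12 for YAP1, 0.15 for RPH1 and -0.26 for FLO8 (adjusted p of 0.319, 0.301 and 0.0514), and of these FLO8 alone passed after centring with pairing.

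**Figure D4:**
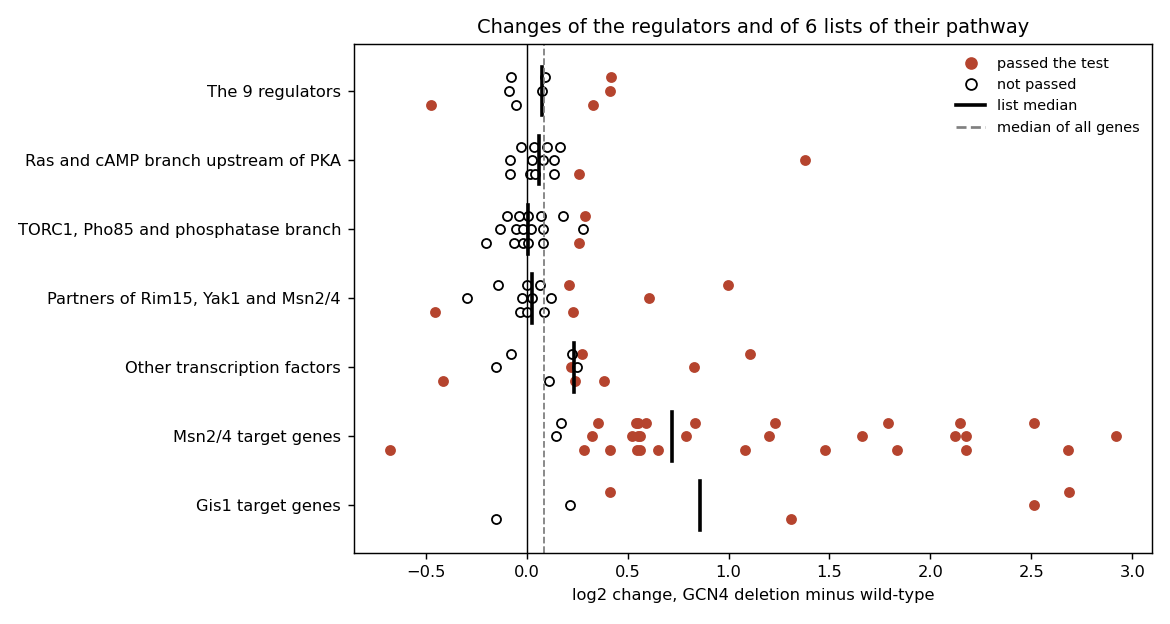
Log2 change, GCN4 deletion minus wild-type (horizontal axis), of the 9 regulators and of the measured genes of 6 lists of their pathway; each point is a gene, filled where it passed the test, and vertical offsets only separate points. The regulators lie between -0.47 and 0.42, with a median of 0.08 that is close to the median of all genes, 0.09 (dashed). Genes of the cyclic AMP and TORC1 lists lie between -0.20 and 0.29, except RGS2 at 1.38. The Msn2/4 targets reach up to 2.92 with a median of 0.72.

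Genes known to depend on Msn2 and Msn4 were mostly higher in the GCN4 deletion. Of 32 such genes, 29 rose, 1 fell and 2 did not pass, so that 90.6% rose against 24.6% of all genes, with a median log2 change of 0.72 against 0.09 over all genes and 0.41 for MSN4. The list was drawn up with stress genes already known to be higher in these data, so its direction is not independent evidence. Averaged over the 32 genes, the log2 level was 12.08, 12.02 and 12.09 in the GCN4 deletion, against 10.90, 11.18 and 10.85 in the wild-type. The groups were separated by 0.84. The highest wild-type array was replicate 2, as it was for 7 of the 9 regulators, MSN4 among them, and for 39.3% of all genes.

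CTT1, the cytosolic catalase gene, had log2 levels of 11.33, 11.26 and 11.36 in the GCN4 deletion, against 8.96, 9.40 and 9.05 in the wild-type. It rose 4.52-fold (adjusted p = 6.07e-05, limma). HSP42, a small heat shock protein gene, had 12.15, 12.10 and 12.07 in the deletion, against 9.73, 10.44 and 9.61 in the wild-type, and rose 4.52-fold (adjusted p = 0.000653). SOL4, a 6-phosphogluconolactonase gene, rose 4.43-fold (adjusted p = 0.000192). DDR2, HSP12 and HSP26 had larger changes of 2.92, 2.68 and 2.51 on the log2 scale. In CTT1, HSP42 and SOL4 alike, wild-type replicate 2 lay above the other wild-type arrays and still below every deletion array.

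The glucose kinase genes HXK1 and GLK1 changed by 0.14 and 0.17 and did not pass (adjusted p = 0.164 and adjusted p = 0.217, limma). GLK1 had a log2 level of 13.34 on wild-type replicate 2, against 13.09 and 13.00 on the other wild-type arrays. It passed as higher only when wild-type replicate 2 was left out (adjusted p = 0.0301), while HXK1 passed in no alternative. The gene of the list that fell was DDR48, a DNA damage-responsive gene named after its value was seen. It had log2 levels of 12.50, 12.37 and 12.77 in the GCN4 deletion, against 13.17, 13.16 and 13.33 in the wild-type, and fell 1.6-fold (adjusted p = 0.00525). Its groups did not overlap, and it passed as lower in all 18 alternatives.

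**Figure D5:**
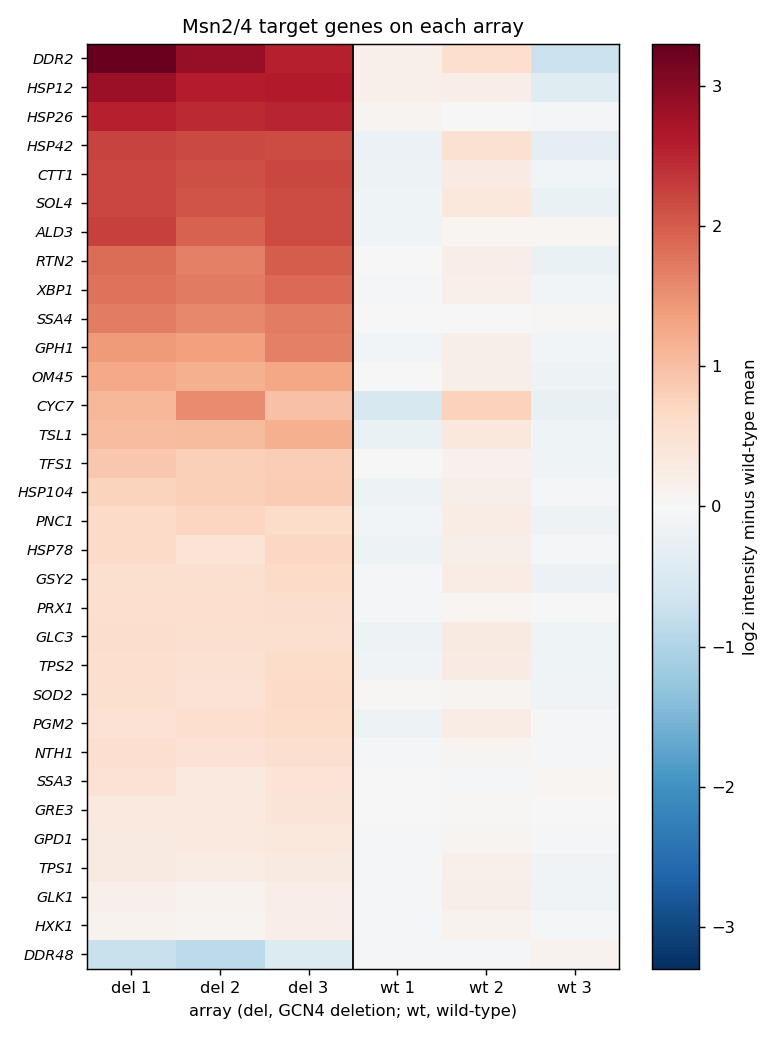
Log2 intensity minus the wild-type mean (colour) of the 32 Msn2/4 target genes (rows, ordered by change) on the 3 GCN4 deletion and 3 wild-type arrays (columns). Nearly all rows are red in the deletion columns, DDR48 is blue, and wild-type replicate 2 is the reddest of the wild-type columns in most rows.

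Of 6 genes ascribed to Gis1, 4 rose and 2 did not pass, so that 66.7% rose against 24.6% of all genes, with a median log2 change of 0.86 against 0.09. This list too was drawn up with earlier results known, and its direction is not independent evidence. SSA3 and HSP26, which are also in the Msn2/4 list, rose 1.33-fold and 5.71-fold (adjusted p = 0.00383 and adjusted p = 3.21e-06, limma). GRE1, a hydrophilin gene, exceeded the background level on all 3 deletion arrays but on only 2 of the 3 wild-type ones, and rose at least 6.28-fold (adjusted p = 3.99e-05). SPI1, a cell wall protein gene, had log2 levels of 10.86, 10.70 and 10.61 in the GCN4 deletion, against 9.44, 9.63 and 9.18 in the wild-type, and rose 2.48-fold (adjusted p = 0.000653). The genes that rose have been described as activated through post-diauxic shift elements, while DPP1 and PHR1 have been described as repressed by Gis1. DPP1, a lipid phosphatase gene, had a change of -0.15 (adjusted p = 0.0799) and PHR1, the photolyase gene, one of 0.21 (adjusted p = 0.0666). In the paired fit both passed, DPP1 as lower (adjusted p = 0.0262) and PHR1 as higher (adjusted p = 0.012). DPP1 was also lower after centring (-0.26, adjusted p = 0.0184). PHR1 did not pass after centring, with or without pairing (0.11, adjusted p = 0.283 without), and its change turned to -0.11 after quantile normalization (adjusted p = 0.319).

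For each regulator that passed, the genes with the most similar course of log2 level over the 6 arrays were listed, as a description in which the arrays share their scaling and the difference between the strains. For YAK1 these were PHO23, STB5 and YIR016W with Pearson's r of 0.999, 0.998 and 0.997, and 1066 genes had an r of at least 0.9. MSN4 was followed most closely by FBP26, HUL5 and PDH1 with r of 0.998, 0.997 and 0.996, and by 484 genes at 0.9 or above. TPK3 was closest to MCM3, HCS1 and RNA15 with r of 0.991, 0.990 and 0.989, and had 636 such genes. SCH9 was closest to PRY3, THR1 and TUB4 with r of 0.995, 0.994 and 0.977, and had 166. Between the regulators that passed, r was 0.90 for YAK1 with MSN4, 0.84 for TPK3 with YAK1 and -0.84 for TPK3 with SCH9. For TPK2 with MSN2, neither of which passed, r was 0.87. No r within a strain was computed, so the part of the strain difference in these values was not tested.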

How the data were processed

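Total RNA of 6 samples, 3 per strain, was labelled with biotin and measured on Affymetrix arrays, per the labels' protocols. R 2.8.0, affy and RMA are named, without their roles, in the submitters' processing notes. The deposited values are normalised intensities on a linear scale, 1 per probe set and array, and log2 was taken here with no pseudocount because every value was above 0. Gene names came from the platform annotation and the R64 assembly's gene table. The annotation of 5498 of the 10928 probe sets gives a single S. cerevisiae gene. The others were for another species (1746), for several genes (1), without a gene (3470), controls (166) or reporters (47), and were not tested. Where a gene had several probe sets (47 genes), the one with the highest mean over the 6 arrays was used, which left 5449 genes, with no filter on low values. A gene at or below the background level on some arrays of a group had those values set to it and is given as "at least" a fold.

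Sample titles gave the group and the replicate number. The deletion was compared with the wild-type by a two-sided limma fit without covariates (lmFit, then eBayes; limma 3.58.1, run in R 4.3.3), and intervals are 95% intervals of that fit. The fit was tested on simulated data, drawn independently for each array. That simulation held no shift between arrays and no correlation of same-numbered arrays, so it does not show how these affect the calls. Pairs of paralogs were compared with an exact permutation test in scipy 1.17.1, and figures were drawn with matplotlib 3.10.9. The number of arrays limits the precision. The regulators, the lists and the genes named were chosen with earlier results of these data known. From each list up to 6 genes that passed, with the largest changes and groups that did not overlap, and up to 3 that did not pass were to be named, and other genes are said to be named after their values were seen, or are given in ranges. SDC25, which was on the Ras and cyclic AMP list, was not analysed here. Planned searches of promoter and protein sequences were not run. Same-numbered arrays of the 2 groups deviated together from their group means (r of 0.69, 0.53 and 0.71 over genes, above a limit of 0.1), so the numbers were taken as pairs. The labels say nothing of what the numbers stand for, so the pairing rests on that correlation, and the value from the paired (blocked) fit is printed where it changes a call. Alternatives covered the scaling, array weights, the variance model, which probe sets enter, a dim-gene filter, the replicate block and leaving out each array. Centring together with the block was added after the data were seen.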

Additional observations from a re-analysis of the deposited data

How the results depend on the processing

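Over the 18 alternatives YAK1 passed in 18, SCH9 in 17, MSN4 in 13 and TPK3 in 12, and these 4 kept their direction in all. TPK3 lost its call after centring (0.23), after quantile normalization (0.23) and with all probe sets except controls and reporters in the fit (0.33, adjusted p = 0.0553), where MSN4 also lost it (0.41, adjusted p = 0.058). BCY1 turned to -0.024 and GIS1 to -0.014 after centring, with or without the replicate block, and they turned to -0.025 and -0.017 after quantile normalization. MSN2 passed as lower after centring with the replicate block (-0.16, adjusted p = 0.0325), where 2 regulators fell and, of all genes, 1320 fell. With all probe sets in the fit, 832 genes rose and 229 fell, 1 regulator rose, and 1, 1, 2 and 3 genes rose in the cyclic AMP, TORC1, partner and transcription factor lists. Of all genes, 1338 rose and 418 fell as deposited, 778 and 703 after centring, 868 and 690 after cyclic loess, 692 and 873 after quantile normalization, and 1925 and 666 under the replicate block, and the share of passing genes that were higher was 76.2%, 52.5%, 55.7%, 44.2% and 74.3% in that order.

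Of all 5449 genes, 1628 rose and 551 fell with array weights, and 1223 rose and 1320 fell after centring with the replicate block. The list counts that follow were not tested against these totals or those given above. In the cyclic AMP list 1 gene rose after centring, cyclic loess or quantile normalization, 4 with array weights and 5 with the replicate block, and 2 fell after centring with the block. In the TORC1 list 0 rose and 1 fell after centring, 1 rose and 2 fell after cyclic loess or quantile normalization, 2 fell with array weights, 1 with the replicate block and 5 after centring with the block. In the partner list 2 rose and 2 fell after centring, 2 rose and 4 fell after centring with the block, 1 rose and 2 fell after quantile normalization, 2 fell after cyclic loess or with array weights, and 3 with the replicate block. Of the transcription factors 3 rose after centring, cyclic loess or quantile normalization, and 2 fell after the last of these, after cyclic loess, with array weights, and with the replicate block with or without centring. Of the Gis1 genes 1 fell after centring with or without the block, after cyclic loess, after quantile normalization and with the replicate block. The number of Msn2/4 targets that rose, 29, stayed within 1.5 times that number, and 1 fell, in all alternatives. Among those that rose, TPS1 passed in 8 of the 18 alternatives, CYC7 in 11 and GLC3 in 12. Each of these genes missed the threshold when any array but wild-type replicate 2 was left out. The cause of these shifts was not tested.

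Leaving out each array gave log2 changes of 0.28 to 0.40 for TPK3, -0.56 to -0.39 for SCH9, 0.35 to 0.51 for MSN4 and 0.39 to 0.46 for YAK1, with 1 to 3 regulators higher and 0 to 1 lower. Over all genes 920 to 1141 rose and 270 to 355 fell. The ranges were 1 to 2 higher in the cyclic AMP list, 1 to 2 higher and 0 to 1 lower in the TORC1 list, and 2 to 4 higher in the partner list. The background level, 6.32 on the log2 scale as a mean of the arrays, was 5.96 at percentile 90 and 7.28 at percentile 99, all below the lowest level of any regulator, 10.22.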

Other observations

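Wild-type replicate 2 was the highest wild-type array for 7 of the 9 regulators and for 27 of the 32 Msn2/4 target genes, against 39.3% of all genes. The exceptions among the regulators were TPK3 and SCH9. For MSN4 its log2 level there was 11.10, against 10.80 and 10.77 on the other wild-type arrays. For YAK1 it was 11.08, against 10.94 and 11.00. The part of this array in the spread of the wild-type was not tested beyond leaving it out.

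The measured genes next to the 9 regulators on the chromosome, 18 in all and added after the data were seen, passed in 6 cases, 4 higher and 2 lower, or 33.3%, near the 32.2% of all genes. Of the 8 that flank the regulators that passed, 1 passed (12.5%). This was MNL1, beside SCH9, whose product takes part in the breakdown of glycoproteins. Its mean log2 level was 11.60 in the GCN4 deletion and 11.27 in the wild-type, a rise of 0.33 (adjusted p = 0.00877, limma), while SCH9 itself fell. The neighbours of MSN4, YKL063C and BLI1, had changes of 0.13 and 0.12 and did not pass. Of the 10 that flank regulators that did not pass, 5 passed (50.0%), among them both neighbours of MSN2. MIH1, a cell cycle phosphatase gene, was higher by 0.29 in the GCN4 deletion (adjusted p = 0.0156), and CCS1, a copper chaperone gene, changed by -0.35 (adjusted p = 0.0111), with MSN2 at -0.05 between them. The difference between these shares was not tested.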
